A study of Homo sapiens with 9 samples.

Results

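The proteasome subunit genes were taken from the deposited gene table as the protein-coding rows whose symbol is PSM, a letter from A to G and a number. The rule found 47 of the 36785 genes, and 46 of them were abundant enough to be tested. SKOV3 cells, an established line from a human ovarian cancer, received lentivirus in all 3 groups, so the controls carry a lentiviral insert as well. The group labelled shNC has the genotype NC, the group sh1 the genotype STXBP6 knockdown_1 and the group sh3 the genotype STXBP6 knockdown_3. Each group has 3 poly(A)-selected RNA-seq libraries, and the series asks what knockdown of STXBP6, a syntaxin-binding protein gene, does to the transcriptome of these cells. No label ties the replicates to separate cultures. The p-values therefore set a group difference only against the spread between these 9 libraries within their groups, which may be technical variation. Both comparisons with shNC use the same 3 control libraries, and their values are therefore given side by side and not as independent support for each other.

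The proteasome degrades proteins tagged with ubiquitin and yields many of the peptides that MHC class I molecules present. Its 20S core is a stack of alpha rings (PSMA genes) and beta rings (PSMB genes), with the proteolytic sites on PSMB5, PSMB6 and PSMB7, and the 19S cap of ATPases (PSMC genes) and other subunits (most PSMD genes) recognises, unfolds and admits the substrates. In cells of the immune system, or after interferon gamma, PSMB8 takes the place of PSMB5, PSMB9 that of PSMB6 and PSMB10 that of PSMB7, which gives the immunoproteasome. Interferon also induces PSME1 and PSME2, which form the PA28 alpha-beta activator of the 20S core.

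The promoters of these interferon-inducible genes are shown because the 3 members that fell with sh1 all belong to this group. Each line runs 5′ to 3′ on the gene's own strand, from 150 bases before the RefSeq start site through the first 20 transcribed bases, 170 bases in all (GRCh38.p14). Capitals mark the match to GAAANNGAAA, the core of the interferon-stimulated response element, on either strand. PSMB8 is shown at chr6:32844028-32844197 (minus strand), PSMB9 at chr6:32854042-32854211 (plus), PSMB10 at chr16:67936831-67937000 (minus), PSME1 at chr14:24136044-24136213 (plus) and PSME2 at chr14:24146591-24146760 (minus).
PSMB8: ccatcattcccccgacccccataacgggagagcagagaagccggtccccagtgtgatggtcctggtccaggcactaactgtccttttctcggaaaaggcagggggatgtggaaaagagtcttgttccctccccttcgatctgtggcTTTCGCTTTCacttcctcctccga
PSMB9: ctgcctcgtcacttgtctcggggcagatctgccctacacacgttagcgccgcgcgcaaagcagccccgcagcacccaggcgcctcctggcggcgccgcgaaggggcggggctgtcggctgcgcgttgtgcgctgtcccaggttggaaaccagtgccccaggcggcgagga
PSMB10: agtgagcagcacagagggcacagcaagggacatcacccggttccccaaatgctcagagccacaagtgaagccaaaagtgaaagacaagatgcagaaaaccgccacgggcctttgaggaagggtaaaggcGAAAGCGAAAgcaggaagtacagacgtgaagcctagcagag
PSME1: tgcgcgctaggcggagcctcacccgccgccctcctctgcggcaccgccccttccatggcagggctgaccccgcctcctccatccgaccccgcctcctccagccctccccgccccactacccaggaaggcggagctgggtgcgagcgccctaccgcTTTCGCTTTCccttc
PSME2: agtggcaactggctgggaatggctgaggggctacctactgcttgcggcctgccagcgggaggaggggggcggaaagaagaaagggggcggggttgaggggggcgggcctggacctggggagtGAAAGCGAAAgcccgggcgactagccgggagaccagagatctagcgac
The match began 4 bases before the start site in PSMB8, 21 before it in PSMB10, 28 before it in PSME2 and 5 after it in PSME1, and the PSMB9 stretch held none. A second RefSeq start site of PSMB8, further upstream, had no match in its window. In windows from 250 bases before to 50 after each start site, 7 of the 41 members with a RefSeq promoter (17.1%) held a match on either strand, against 4.38% of the 27305 genes. The other matches were in PSMA4, PSMB4 and PSMG4. Of the 7, PSMB8, PSMB10 and PSME1 fell with sh1, while PSMB4 and PSMG4 rose (log2 change 0.14 and 0.37). PSMA4 and PSME2 were at 0.003 and -0.003, neither called. Whether a match goes with a change was not tested. TGACNNNGC, the core of the antioxidant response element, was found in 15 of the 41 (36.6%) against 16.1% of genes, PSME1, PSME2 and PSMB9 among them. TTCNNNGAA, the gamma-activated site, was found in 7 of the 41 (17.1%) against 9.38% of genes, and PSMB8 held it 65 bases before its start site. No match of one motif overlapped a match of another in these 5 genes, and a match is a description of letters, not of binding.

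Library totals ran from 57654447 to 69264400 counts, and the 46 tested members had at least 832 counts in every library. STXBP6 itself had 0 to 15 counts in the shNC libraries, 4 to 26 in sh1 and 18 to 31 in sh3, so its level does not check the labels. Of 9 ovarian epithelial markers 7 reached a mean of 1 FPKM (WT1 and MUC16 did not). None of the 8 leukocyte markers in the table did, and PTPRC, which marks leukocytes, was at 0 in 8 of the 9 libraries. The summed leukocyte marker level was 0.0966 to 0.35 FPKM in shNC, 0.176 to 0.274 in sh1 and 0.278 to 0.464 in sh3. Of the epithelial markers 1 rose and 5 fell with sh1, and 2 rose and 1 fell with sh3 (summed level 1112 to 1218 FPKM in shNC, 715 to 745 in sh1 and 1140 to 1185 in sh3, mostly ERBB2). Of 5 fibroblast markers 3 reached 1 FPKM, and 1 rose and 3 fell with sh1 and 1 rose and 2 fell with sh3 (14.9 to 18.2, 16.3 to 16.9 and 12.1 to 13.1). Of 5 endothelial markers KDR alone reached 1 FPKM, and 2 fell with sh1 while 1 rose and 1 fell with sh3 (1.94 to 2.21, 0.963 to 1.11 and 2.68 to 2.89). The part of these differences in the members' changes was not tested. FPKM is the deposited level, scaled to gene length and library size. In these bulk samples fewer cells of a kind and less RNA per cell cannot be told apart.

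Together the 47 genes took 0.69% ± 0.0147 (SD, n = 3) of all counts in shNC, 0.76% ± 0.00921 in sh1 and 0.749% ± 0.00668 in sh3. The highest shNC library stood at 0.706% and the lowest hairpin library at 0.742%, so every hairpin library was above every control library. The sh1 libraries (0.754% to 0.771%) and the sh3 libraries (0.742% to 0.755%) overlapped. On the FPKM scale the constitutive beta-ring genes were the most abundant in shNC, from 32.0 for PSMB6 to 124 for PSMB4, with a median of 87.5. The alpha ring ran from 7.01 for PSMA2 to 114 for PSMA7, the 19S base from 9.45 for PSMC2 to 86.5 for PSMD2 and the lid from 16.6 for PSMD6 to 86.7 for PSMD3. The immune subunits lay below every constitutive beta-ring gene, with PSMB8 at 23.6 ± 2.14 (SD, n = 3), PSMB10 at 17.6 ± 2.58 and PSMB9 at 5.18 ± 0.609. PSMB8 and PSMB10 were above the lowest genes of the alpha ring, the base and the lid, and PSMB9 was below all of these. PSMB8 stood between PSMG1 and PSMD14 in the order of levels. PSMB11, the thymus-restricted catalytic subunit, had 0 counts in 8 libraries and 4 in the other one, sh3 replicate 2, where a floor of 3 counts is 0.0433 to 0.052 CPM (counts scaled to library size), and it was not tested.

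The order of levels rests on the gene length. The length implied by the deposited counts and FPKM was 1.09 to 13.6 times that of the principal GENCODE transcript (median 2.29). Per kilobase of that transcript, a scale added after the data were seen, PSMB4 remained first at 295.5 CPM and PSME3, the nuclear PA28 gamma activator, moved from 14th to 2nd at 240.7. PSMA6 moved from 26th to 8th, PSMD6 from 33rd to 13th and PSMA2 from 41st to 30th. PSMB9 and PSMB10 lay at 23.9 and 25.4 CPM per kilobase and PSMB8 at 78.9, against 58.6 to 295.5 for the constitutive beta ring. The immune subunits PSMB9 and PSMB10 were below every constitutive 20S gene on this scale, while PSMB8 was above PSMB6.

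**Figure D1:**
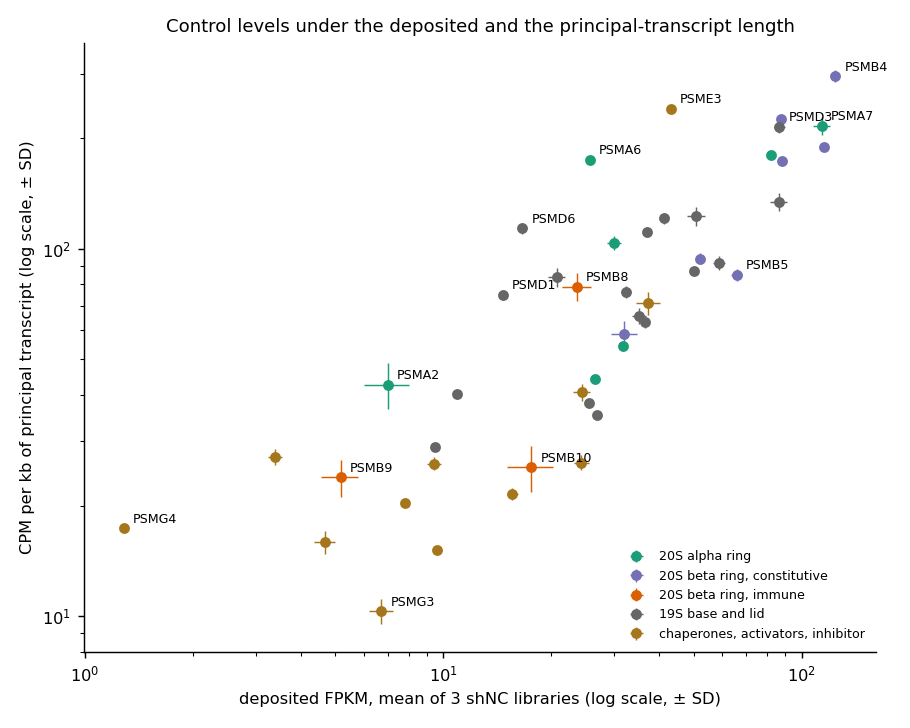
Mean level of the 46 tested members in the 3 shNC libraries, as deposited FPKM (x axis, log scale) and as CPM per kilobase of the principal transcript (y axis, log scale), with bars of 1 SD and colours for the parts of the complex. PSMB4 is highest on both axes, and height above the diagonal trend follows the ratio of the lengths, which is greatest for PSMG4 at 13.6.

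With sh1, 25 of the 46 tested members were higher than in shNC and 3 were lower, at an adjusted p under 0.05 in edgeR's quasi-likelihood test over all 21296 genes. That is 54.3% and 6.52% of the members, against 19.9% and 18.8% of all genes. With sh3, 23 members (50%) were higher and 1 (2.17%) was lower, against 14.4% and 12.4% of all genes. The median log2 change of the members was 0.14 with sh1 and 0.13 with sh3, and that of all genes was -0.02 and -0.01. Abundant genes were called more often: among the 9317 genes at or above the mean level of the least abundant tested member, 36% were higher and 26.6% lower with sh1, and 27.2% and 19.4% with sh3. No change exceeded 0.57 in size on the log2 scale; PSMD2 with sh1, for example, was 44.5% higher. Directly between the hairpins, 6 members were higher and 8 lower in sh3 (13% and 17.4%), against 12.9% and 13% of all genes and 20.3% and 22.9% of the equally abundant ones.

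In the alpha ring, which forms the gate of the 20S core, 2 of 7 genes rose with sh1 (28.6%) and 1 with sh3 (14.3%), which is no more than the 36% and 27.2% of equally abundant genes. PSMA7 (chr20:62136733-62143430, minus strand) was at 112, 109 and 121 FPKM in the shNC libraries, 134, 139 and 137 in sh1 and 152, 146 and 157 in sh3, in replicate order. The 3 groups did not overlap and sh3 was the highest. Its log2 change was 0.29 ± 0.04 (SE) with sh1 (edgeR adjusted p 0.00014) and 0.42 ± 0.04 with sh3 (1.9e-05). PSMA6 rose with sh1 by the call, at 0.15 ± 0.04 (edgeR adjusted p 0.0037), and was at 0.02 with sh3. It was lower in sh3 than in sh1 by the direct test (-0.14, adjusted p 0.013), though not without sh3 replicate 1 (0.055) or sh3 replicate 2 (0.057), nor in the 3 limma settings. PSMA1, PSMA3, PSMA4 and PSMA5 did not pass, with changes between -0.04 and 0.09, and PSMA2 did not pass at 0.23 and 0.20, with a wider error of 0.09.

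Among the non-catalytic beta subunits PSMB2, PSMB3 and PSMB4 rose with sh1 (0.14 to 0.18) and PSMB3 and PSMB4 with sh3 (0.13 and 0.14), while PSMB1 was at 0.03 in both. Of the catalytic subunits, PSMB5, which carries the chymotrypsin-like site, was at 64.2, 64.9 and 68.5 FPKM in shNC, 70.4, 71.3 and 76.2 in sh1 and 70.4, 75.1 and 75.8 in sh3. Every hairpin library was above every control library. The log2 change was 0.17 ± 0.04 with sh1 (edgeR adjusted p 0.0069) and 0.17 ± 0.04 with sh3 (0.013). PSMB6, with the caspase-like site, was at 31.3, 29.8 and 34.9 FPKM in shNC, 29.6, 30.1 and 32.0 in sh1 and 39.1, 35.9 and 35.1 in sh3. On FPKM the sh3 libraries stood just above the rest, and on CPM sh3 replicate 3 (54.6) fell just below shNC replicate 3 (54.7) (-0.03 ± 0.07 with sh1, adjusted p 0.75, and 0.20 ± 0.07 with sh3, 0.044). PSMB7, with the trypsin-like site, was at 90.4, 85.5 and 88.8 FPKM in shNC, 92.1, 92.8 and 92.5 in sh1 and 95.4, 92.5 and 96.1 in sh3. It was higher by 7.11% and 7.4% (edgeR adjusted p 0.02 and 0.023), with no overlap.

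The PSMB6 call with sh3 was lost in 6 of the 9 fits that leave out 1 library (adjusted p up to 0.17, without sh3 replicate 1), and both PSMB7 calls were lost when raw library totals replaced the scaled ones and in some of those 9 fits (2 with sh1, without shNC replicate 2, 0.076, or sh1 replicate 3, 0.056, and 3 with sh3, without shNC replicate 2, 0.084, sh3 replicate 1, 0.084, or sh3 replicate 3, 0.069). The PSMB5 call with sh3 was lost without shNC replicate 1 (0.0536) and without sh3 replicate 2 (0.0545). The PSMB3 call with sh3 was lost without shNC replicate 1 (0.082), shNC replicate 2 (0.0539) or sh3 replicate 1 (0.092).

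In the 19S cap, 12 of the 17 base and lid genes rose with sh1 (70.6%) and 9 with sh3 (52.9%), and none fell (median log2 change 0.19 and 0.15). The shares of equally abundant genes were 36% higher and 26.6% lower with sh1, and 27.2% and 19.4% with sh3. PSMD2, the scaffold subunit that binds ubiquitin receptors and shuttle factors (chr3:184299198-184309050, plus strand), was at 85.1, 82.7 and 91.7 FPKM in shNC, 120, 122 and 125 in sh1 and 109, 107 and 112 in sh3. The 3 groups were apart, with sh1 the highest. The log2 change was 0.53 ± 0.04 with sh1 (edgeR adjusted p 6.2e-07) and 0.34 ± 0.04 with sh3 (4.7e-05). PSMC3, an ATPase of the base ring (chr11:47418769-47426442, minus strand), was at 56.1, 59.6 and 60.7 FPKM in shNC, 81.2, 81.3 and 85.4 in sh1 and 75.9, 76.4 and 78.6 in sh3. It was again lowest in all control libraries and highest in sh1 (0.52 ± 0.04, edgeR adjusted p 5.8e-07, and 0.39 ± 0.04, 1.5e-05).

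Smaller increases were seen for 3 other genes of the cap with library values near each other. PSMD4, a ubiquitin receptor, was at 50.0, 48.2 and 53.9 FPKM in shNC, 56.6, 58.3 and 60.6 in sh1 and 60.5, 59.3 and 59.8 in sh3 (log2 change 0.24 with each hairpin). PSMC1, an ATPase, was at 24.9, 25.9 and 26.0 FPKM in shNC, 28.6, 29.7 and 29.7 in sh1 and 30.6, 29.7 and 28.6 in sh3 (0.23 and 0.22). PSMD8, of the lid, was at 37.7, 36.5 and 37.2 FPKM in shNC, 42.2, 43.1 and 45.0 in sh1 and 43.6, 41.7 and 42.9 in sh3 (0.26 and 0.21). In these 3 genes every hairpin library was above every control library, with edgeR adjusted p between 8.4e-05 and 0.0015. PSMC4, PSMC6, PSMD1 and PSMD3 rose by 0.19 to 0.24 with sh1 and by 0.15 to 0.24 with sh3. PSMD6, PSMD12 and PSMD14, the lid's deubiquitinase, rose with sh1 alone by the call (0.10 to 0.12) and did not pass with sh3 (0.06 to 0.11), with no called difference between the hairpins. These 3 calls were lost without shNC replicate 1 (adjusted p 0.06, 0.12 and 0.11), those of PSMD12 and PSMD14 without 6 and 2 other libraries in turn as well, and none was made with raw library totals. PSMC2, PSMC5, PSMD7, PSMD11 and PSMD13 did not pass with either hairpin, between -0.04 and 0.10.

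**Figure D2:**
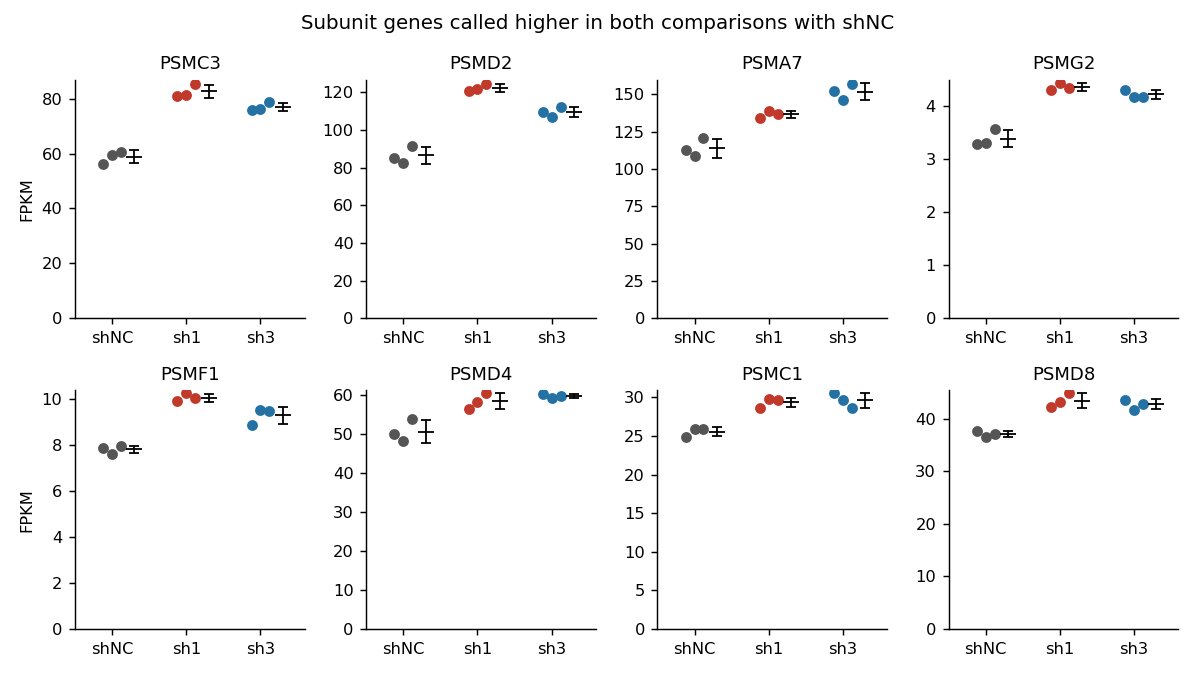
FPKM in each of the 9 libraries for 8 members called higher in both comparisons with shNC (y axis from 0, dots are libraries, the black mark is the mean ± SD of 3). In each panel the 3 grey control dots lie below all red and blue ones, as for PSMC3 at 56.1 to 60.7 FPKM against 75.9 to 85.4.

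PSMD3 lies 250381 bases from ERBB2 on chromosome 17, the receptor gene for which SKOV3 is known as an amplified line. ERBB2 fell by 0.83 on the log2 scale with sh1 (edgeR adjusted p 4.9e-08), while PSMD3, at 86.4, 83.8 and 89.9 FPKM in shNC, rose to 97.8, 97.7 and 96.4 in sh1 and 101, 103 and 102 in sh3. The 2 neighbours thus moved in opposite directions with sh1.

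Assembly chaperones leave the finished particle. Of the 7, which are PSMG1 to PSMG4 for the 20S core and PSMD5, PSMD9 and PSMD10 for the base, 4 rose with sh1 and 5 with sh3 (57.1% and 71.4%, with median log2 changes of 0.36 and 0.19), and none fell. Of equally abundant genes 36% rose and 26.6% fell with sh1, and 27.2% rose and 19.4% fell with sh3. PSMG1, which pairs with PSMG2 to start the alpha ring (chr21:39174769-39183451, minus strand), was at 24.5, 23.1 and 25.3 FPKM in shNC, 32.3, 33.8 and 33.8 in sh1 and 27.7, 26.9 and 28.0 in sh3. The sh1 libraries were far above both other groups (0.49 ± 0.04, edgeR adjusted p 3.6e-06, against 0.18 ± 0.04 with sh3, 0.0083). Its partner PSMG2 was at 3.30, 3.31 and 3.58 FPKM in shNC, 4.31, 4.45 and 4.35 in sh1 and 4.32, 4.19 and 4.18 in sh3, higher with both hairpins (0.40 ± 0.05, edgeR adjusted p 2.4e-05, and 0.32 ± 0.05, 0.00026). PSMG2 overlaps 3 genes on the other strand, CEP76 and SPIRE1 among them, and the strand setting of the counting is not given, so their reads may be mixed.

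PSMG4, a partner of PSMG3, rose with sh1 (0.37 ± 0.09, edgeR adjusted p 0.0059) and did not pass with sh3 (0.19). PSMG3 itself did not pass (0.13 and 0.06). PSMD5, a base chaperone, rose by 0.36 with sh1 and by 0.20 with sh3 (edgeR adjusted p 8.9e-06 and 0.0015). PSMD9 and PSMD10 passed with sh3 only (0.29 and 0.13) and were at 0.15 and 0.11 with sh1, neither called, and the direct difference between the hairpins did not pass for PSMD9, PSMD10 or PSMG4. The PSMD10 call with sh3 was lost with raw library totals and in 5 of the 9 fits that leave out 1 library (adjusted p up to 0.11).

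The regulators of the core split. PSMF1, the inhibitor PI31 (chr20:1113240-1189415, plus strand), was at 7.87, 7.62 and 7.95 FPKM in shNC, 9.90, 10.3 and 10.04 in sh1 and 8.87, 9.54 and 9.48 in sh3, with the 3 groups apart. It rose by 0.40 ± 0.04 with sh1 (edgeR adjusted p 3.5e-06) and 0.25 ± 0.04 with sh3 (0.00025). PSME3, PA28 gamma, rose by 0.32 ± 0.03 with sh1 (2.4e-06) and 0.11 ± 0.03 with sh3 (0.013, but 0.064 without sh3 replicate 2). PSME4, the PA200 activator, did not pass (0.10 and 0.04).

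PSME1, PA28 alpha (chr14:24136163-24138967, plus strand), was at 39.1, 38.9 and 34.1 FPKM in shNC, 29.3, 28.5 and 29.02 in sh1 and 34.2, 33.9 and 32.9 in sh3. All sh1 libraries lay below the others, and the sh3 libraries overlapped shNC replicate 3. It fell by 0.34 ± 0.05 on the log2 scale with sh1 (edgeR adjusted p 0.00023). With sh3 the change was -0.15 ± 0.05, which passed narrowly (0.0499) and was lost in 13 of 17 alternative fits, up to 0.19 without shNC replicate 1. PSME2, PA28 beta, lies next to PSME1 (chr14:24143362-24147570, minus strand) and was at 9.66, 9.64 and 8.94 FPKM in shNC, 9.96, 8.97 and 8.65 in sh1 and 11.5, 10.1 and 10.9 in sh3. Only sh3 stood above the controls (-0.003 ± 0.07 with sh1, adjusted p 0.98, and 0.21 ± 0.07 with sh3, 0.037), and 10 of 17 alternative fits lost that call (adjusted p up to 0.14, without sh3 replicate 1). The 2 genes of this heteromer thus had different calls with each hairpin, and both were higher in sh3 than in sh1 (0.19 and 0.21, edgeR adjusted p 0.018 and 0.036). These differences were lost without sh1 replicate 2 (0.063 and 0.12) and without sh3 replicate 1 (0.067 and 0.14), that of PSME1 also without sh3 replicate 2 (0.059), and that of PSME2 also without sh1 replicate 3 (0.13) or sh3 replicate 3 (0.087).

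None of the 3 immune catalytic subunits rose by the call with either hairpin, and 2 fell with sh1. The shares of equally abundant genes were 36% higher and 26.6% lower with sh1, and 27.2% and 19.4% with sh3. A list of 3 genes is too short to weigh against these shares. PSMB10 (chr16:67934506-67936847, minus strand) was at 18.3, 19.8 and 14.8 FPKM in shNC, 10.3, 13.5 and 11.2 in sh1 and 14.8, 13.97 and 15.8 in sh3. The sh1 libraries were the lowest, and the sh3 libraries overlapped only shNC replicate 3. PSMB10 fell by 0.57 ± 0.12 on the log2 scale with sh1 (edgeR adjusted p 0.002), the largest change of any member. With sh3 it was at -0.24 ± 0.11 (0.15).

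PSMB8 (chr6:32840717-32844047, minus strand) was at 24.8, 24.9 and 21.1 FPKM in shNC, 20.4, 19.3 and 20.3 in sh1 and 25.4, 25.4 and 24.3 in sh3. It was lowest in sh1, and sh3 overlapped the controls. It fell by 0.21 ± 0.06 with sh1 (edgeR adjusted p 0.013) and was at 0.09 ± 0.06 with sh3 (0.31). PSMB8 was higher in sh3 than in sh1 by the direct test (0.29 ± 0.06, edgeR adjusted p 0.0027), a call made in all 17 alternative fits, and the same difference for PSMB10 did not pass (0.32 ± 0.12, adjusted p 0.061, and 0.018 to 0.21 over the alternatives, 4 of which passed, without shNC replicate 3 and without sh1 replicate 2 among them). PSMB9 (chr6:32844136-32859851, plus strand) was at 5.46, 5.59 and 4.48 FPKM in shNC, 5.90, 5.38 and 6.09 in sh1 and 6.41, 5.596 and 6.09 in sh3. It did not pass with either hairpin (0.19 ± 0.09, edgeR adjusted p 0.12, and 0.22 ± 0.09, 0.1), with shNC replicate 3 again the lowest control.

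The library shNC replicate 3 was the lowest control for PSMB8, PSMB9, PSMB10, PSME1 and PSME2. Without it the changes with sh1 were -0.28 for PSMB8, -0.67 for PSMB10 and -0.39 for PSME1, and the fall of PSMB10 with sh3 passed (-0.35, edgeR adjusted p 0.024). Leaving out shNC replicate 2 instead moved that change of PSMB10 to -0.15 (0.46). Without shNC replicate 3, PSMB9 was at 0.10 and 0.13, and PSMB8 with sh3 at 0.02. The PSMB8 call with sh1 was lost without shNC replicate 1 (adjusted p 0.062), shNC replicate 2 (0.061) or sh1 replicate 2 (0.059). The PSMB9 row overlaps TAP1 on the other strand and PSMB8-AS1 on its own, and the part of their reads in its count was not tested.

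**Figure D3:**
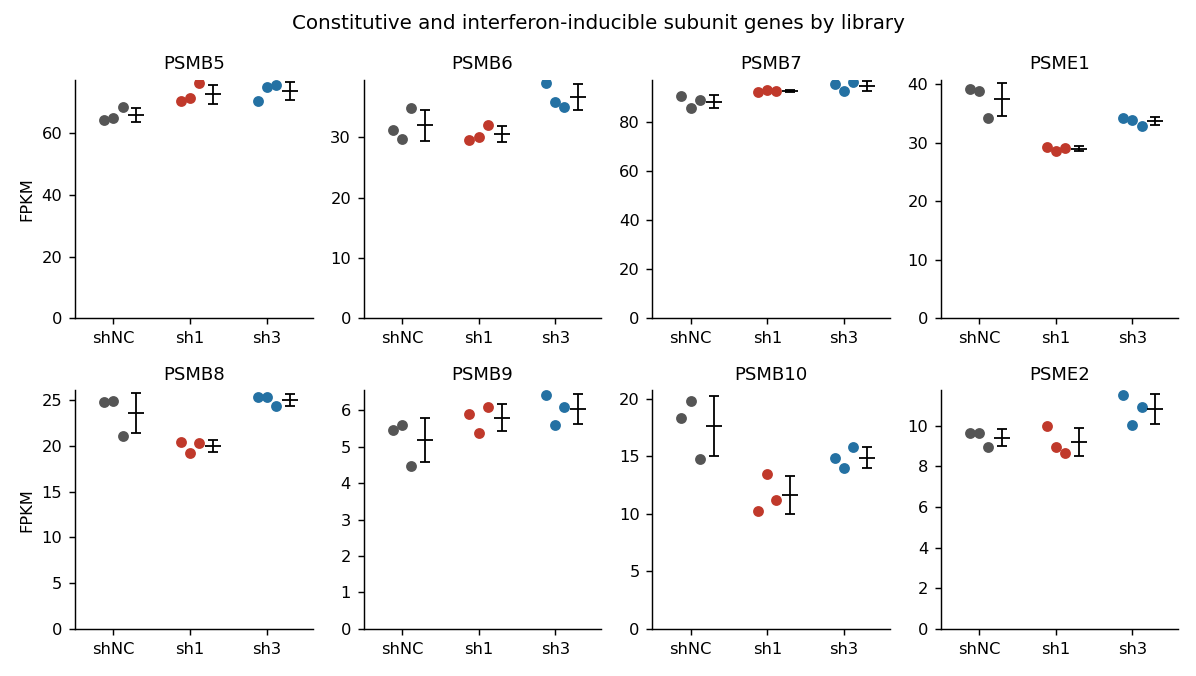
FPKM in each library (y axis from 0, dots are libraries, the black mark is the mean ± SD of 3) for the constitutive catalytic genes and PSME1 above, and the immune catalytic genes and PSME2 below. PSMB8, PSMB10 and PSME1 are lowest in sh1, at 19.3 to 20.4, 10.3 to 13.5 and 28.5 to 29.3 FPKM, while PSMB5 and PSMB7 are lowest in shNC.

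The ratio of each immune subunit to the constitutive one it replaces was taken in each library, which removes the library scaling. Its absolute value rests on the deposited gene lengths, so only differences between the groups are read. The implied length was 3.38 times that of the principal transcript for PSMB8 and 1.31 times for PSMB5. For PSMB9 it was 4.66 times and for PSMB6 1.85 times. PSMB8 over PSMB5 was 0.386, 0.383 and 0.309 in shNC, 0.29, 0.27 and 0.267 in sh1 and 0.36, 0.338 and 0.321 in sh3. The sh1 libraries lay below all others, a fall of 23% against shNC, and the sh3 libraries overlapped the controls (-5.11%). That log2 difference with sh3, -0.08, was -0.02 without shNC replicate 1, -0.03 without shNC replicate 2, -0.12 without sh3 replicate 1, -0.04 without sh3 replicate 3 and -0.18 without shNC replicate 3. PSMB10 over PSMB7 was 0.202, 0.231 and 0.166 in shNC, 0.111, 0.145 and 0.121 in sh1 and 0.156, 0.151 and 0.165 in sh3. The controls were the highest, though the lowest of them, 0.166, stood only just above the highest sh3 library, 0.165, and the ratio was 36.9% lower with sh1 and 20.8% lower with sh3. PSMB9 over PSMB6 was 0.175, 0.188 and 0.128 in shNC, 0.2, 0.179 and 0.19 in sh1 and 0.164, 0.156 and 0.173 in sh3. Here the sh1 libraries overlapped the upper end of the control range and the sh3 libraries lay inside it (17.3% and 1.73% higher as the mean of logs). Without shNC replicate 3, the lowest control, the log2 difference of this ratio was 0.07 with sh1 and -0.14 with sh3, where it had been 0.23 and 0.03.

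Of the 9 comparisons of a ratio between 2 groups, 6 had no overlap. They reached the exact permutation p of 0.1, two-sided, the smallest that 3 against 3 libraries allow (0.15 after Benjamini-Hochberg adjustment), so none can pass 0.05. The other 3 were at 0.2, 0.6 and 1. Between the hairpins, PSMB8 over PSMB5 was 23.2% and PSMB10 over PSMB7 25.5% higher in sh3, and PSMB9 over PSMB6 was 13.3% lower.

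**Figure D4:**
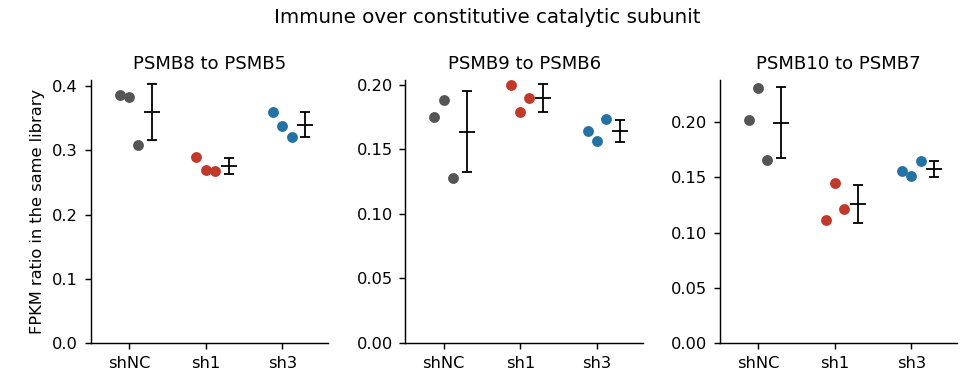
FPKM of each immune catalytic subunit divided by that of the constitutive subunit it replaces, in each library (y axis from 0, dots are libraries, the black mark is the mean ± SD of 3). For PSMB8 to PSMB5 and PSMB10 to PSMB7 the sh1 dots are the lowest, at 0.267 to 0.29 and 0.111 to 0.145, and for PSMB9 to PSMB6 they are not. The absolute ratios rest on the deposited gene lengths, so only differences between the groups are read.

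Tested directly, 14 members differed between the hairpins, with 13% higher and 17.4% lower in sh3, against 20.3% and 22.9% of equally abundant genes. Among the 14, PSMG1 was the most different, lower in sh3 by 0.30 on the log2 scale (edgeR adjusted p 0.00034), followed by PSMB8, higher by 0.29. PSMB6 was higher in sh3 by 0.24 ± 0.07 (edgeR adjusted p 0.024), though not without sh1 replicate 1 (0.089), sh1 replicate 2 (0.079) or sh3 replicate 1 (0.1). PSMA7, PSMD7, PSME1 and PSME2 were the other members higher in sh3, by 0.12 to 0.21. PSMA6, PSMB2, PSMC3, PSMD2, PSMD5, PSME3 and PSMF1 were lower in sh3, by 0.11 to 0.22. Only 5 of the 14 calls were made in all 17 alternative fits. The PSMB2 call was lost in 13 of the 17 and the PSMA7 call in 8.

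The wider pathway was read from 26 tested genes outside the subunit families, which are maturation factors, shuttle factors, deubiquitinases and regulators of the proteasome. Of these, 9 were higher and 4 lower in sh1, and 6 were higher and 3 lower in sh3 (median log2 change 0.05 and 0.03). The shares higher, 34.6% and 23.1%, lie between those of all genes and those of the equally abundant genes. AKIRIN2, which is needed to bring proteasomes into the nucleus, rose from 12.3, 11.5 and 12.1 FPKM in shNC to 15.7, 15.3 and 15.4 in sh1 and 15.8, 18.3 and 18.0 in sh3 (0.40 and 0.54, edgeR adjusted p 0.00015 and 3.0e-05). ZFAND2A, an arsenite-inducible proteasome partner, rose by 0.52 and 0.51 (0.019 and 0.028), and each call was lost in 3 of the 9 fits that leave out 1 library, up to 0.064 and 0.1, without shNC replicate 1 and without sh3 replicate 3. UCHL5, a deubiquitinase of the cap, rose by 0.36 with sh1 and was at 0.10 with sh3.

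Among the partners that fell, ZFAND5, a proteasome activator, was lower by 23.3% with sh1 and 11.5% with sh3, and UBQLN2, a shuttle factor, by 22% and 14.2% (edgeR adjusted p between 2.4e-06 and 0.0098). NFE2L2, the NRF2 transcription factor, fell by 0.42 with sh1 and 0.15 with sh3 on the log2 scale (edgeR adjusted p 4.5e-06 and 0.014, the latter lost without shNC replicate 2, 0.067, or sh3 replicate 3, 0.072). NFE2L1, the factor known to raise subunit genes when proteasome activity falls short, was at 73.3, 76.3 and 72.3 FPKM in shNC, 73.1, 73.3 and 72.1 in sh1 and 71.9, 73.7 and 72.9 in sh3. The groups overlapped and neither change passed (0.01 ± 0.03 and -0.02 ± 0.03, edgeR adjusted p 0.8 and 0.65). These are RNA levels, and the activity of the NFE2L1 protein was not measured. NGLY1, which processes the NFE2L1 protein, was at -0.21 and 0.23, neither called (0.14 with sh3 without sh3 replicate 3), and was higher in sh3 than in sh1 (0.44, edgeR adjusted p 0.0041). POMP, which matures the beta rings, was at 0.01 and -0.04 and did not pass (edgeR adjusted p 0.84 and 0.55).

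Of 6 genes that encode ubiquitin or load it, the count of genes that rose was 5 with sh1 and 5 with sh3, and 1 fell with sh1. That is 83.3% higher with each hairpin, against 36% and 27.2% of equally abundant genes. UBB, a polyubiquitin gene, was at 250.4, 267 and 246 FPKM in shNC, 285, 282 and 289.8 in sh1 and 319, 324 and 305 in sh3, with the groups apart (0.20 and 0.32, edgeR adjusted p 0.00097 and 6.2e-05). RPS27A, ubiquitin fused to a ribosomal protein, rose by 0.23 with sh1 and by 0.20 with sh3. UBA6, an activating enzyme, fell by 0.09 with sh1 (0.038), a call lost without each of 8 libraries in turn (up to 0.2), and was at -0.03 with sh3.

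Finally, 23 genes of the interferon-inducible class I pathway, in which the immune subunits act, were counted in the same way. The sh1 libraries had 7 genes higher and 8 lower, the sh3 libraries 6 higher and 6 lower (median log2 change -0.06 and 0.01). That is 30.4% and 34.8% of the list with sh1 and 26.1% and 26.1% with sh3, beside 19.9% and 18.8%, and 14.4% and 12.4%, of all genes. Of the 9317 genes at or above the level of the least abundant tested member, 36% rose and 26.6% fell with sh1. With sh3 27.2% of them rose and 19.4% fell, and not all genes of the list, IRF9 for example, reach that level. IRF1, an activator of the immune subunit genes, was at 4.01, 4.28 and 3.10 FPKM in shNC, 2.50, 2.71 and 2.45 in sh1 and 2.55, 3.20 and 2.62 in sh3. It fell by 0.54 and 0.44 on the log2 scale (edgeR adjusted p 0.0022 and 0.011), with shNC replicate 3 the lowest control and within the sh3 range. The sh3 call was lost without shNC replicate 2 (0.055), sh3 replicate 1 (0.0542) or sh3 replicate 3 (0.055). STAT2 fell by 0.61 and 0.42, IRF2 by 0.35 with sh1 alone by the call, and NLRC5, the class I transactivator, by 0.16 and 0.18 (0.0088 and 0.0087). IRF9 was at -0.30 with sh1 (0.23; -0.12 without shNC replicate 3 and -0.16 without sh1 replicate 1) and fell by 0.84 with sh3 (0.005). GBP1, an interferon-induced GTPase, was lower in sh3 than in sh1 by 0.40 (0.0094).

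The transporter genes TAP1 and TAP2, which lie beside PSMB8 and PSMB9, rose. TAP1, the peptide transporter gene whose start site lies 488 bases from that of PSMB9 on the opposite strand, was at 20.3, 22.2 and 18.6 FPKM in shNC, 22.8, 23.0 and 22.6 in sh1 and 24.2, 22.8 and 23.4 in sh3. All hairpin libraries were above the controls (0.20 and 0.21, edgeR adjusted p 0.012 and 0.013, the latter 0.0536 without sh3 replicate 1). TAP2 rose by 0.29 and 0.19, while TAPBP, the tapasin gene, fell by 0.47 and 0.75 (edgeR adjusted p 1.9e-05 and 1.2e-06). HLA-B rose by 0.23 and 0.42 and HLA-C by 0.14 and 0.40. The HLA-C call with sh1 was lost without sh1 replicate 1 (0.078) or sh1 replicate 2 (0.056) and with raw library totals. SOCS1, an inhibitor of interferon signalling at 0.297 to 0.434 FPKM in shNC, rose by 1.01 with sh1 (0.0093) and did not pass with sh3 (0.55, 0.16).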

How the data were processed

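The deposited table holds whole read counts and, in separate columns, deposited FPKM values named so in its header. GRCh38, HISAT2 2.2.1, cutadapt 1.9, StringTie 2.1.6, edgeR and DESeq2 appear in the submitters' processing notes, and the role, settings and strand use of each are not given in the sources used for this work. Counts were tested with edgeR 4.0.16 in R 4.3.3 (filterByExpr with minimum count 10, TMM scaling, quasi-likelihood test, 1 mean per group over all 9 libraries), with Benjamini-Hochberg adjustment over 21296 genes, two-sided. The SE is the log2 change divided by the square root of F. Ratios used FPKM with exact permutation tests. Alternatives used DESeq2 1.42.0, limma 3.58.1 on log2(FPKM + 1) or log2(FPKM + 0.1), no filter, library totals, a replicate block, only the 2 groups compared, and leaving out each library. Floors of 3 counts cover counting error only.

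The members and lists were chosen with earlier results of these data known. Library values are given for PSMB5 to PSMB10, PSME1, PSME2, the 8 members called in 1 direction in both comparisons with the largest smaller change, and the 3 largest called changes per comparison. Of other lists, up to 2 called genes per direction and comparison are named, plus IRF1, NLRC5, TAP1, NFE2L1 and POMP. Some genes the rule names are not reported here. Genes named beyond this rule were chosen after their values were seen. Promoters are from RefSeq (GRCh38.p14), which matched 41 members, and principal transcripts from GENCODE 29. Pseudogene rows of these families had at most 596 counts, and 25 members overlap another gene.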

Additional observations from a re-analysis of the deposited data

Results flagged for a closer look

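In 4 members the change with sh1 and the change with sh3 had opposite signs and the direct test between the hairpins passed (edgeR, adjusted p under 0.05). All genes were not counted by this rule, so the 4 cannot be weighed against them. By the direct test alone 13% of members were higher in sh3, against 12.9% of all genes and 20.3% of equally abundant ones. The log2 difference of sh3 from sh1 was 0.294 for PSMB8, 0.235 for PSMB6, 0.208 for PSME2 and 0.122 for PSMD7. PSMB8 fell with sh1 and was not called with sh3, PSMB6 and PSME2 were called higher with sh3 alone, and PSMD7, a lid subunit, was called in neither comparison with shNC (-0.04 and 0.08). The changes of PSMB6 and PSME2 with sh1, -0.033 and -0.003, were near 0. Their signs turned in some fits that leave out 1 library (-0.080 to 0.038 and -0.056 to 0.039). The PSMD7 difference was lost without sh1 replicate 2 (0.12), sh3 replicate 2 (0.098) or sh3 replicate 3 (0.079).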

How the results depend on the processing

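Of 66 calls of members over the 3 comparisons, 42 were made in all 17 alternative fits. The members higher with sh1 numbered 19 to 28 over the alternatives and those lower 2 to 3. With sh3 17 to 25 were higher. The count lower with sh3 was 1, and it was 0 with no filter, the 3 limma settings and only the 2 groups compared, and 0 to 2 when 1 library was left out (2 without shNC replicate 3). Between the hairpins 2 to 7 members were higher when 1 library was left out (2 without sh1 replicate 2 or sh3 replicate 1) and 5 to 8 were lower, and 4 were lower with each limma setting. With the replicate block 26 members were higher and 3 lower with sh1, 22 and 1 with sh3, and 6 and 7 between the hairpins. Same-numbered libraries did not deviate together over all tested genes (correlations -0.093 to 0.030). With 3 libraries per group this cannot exclude a pairing, and the labels give none. The PSMB9 to PSMB6 ratio with sh3, 0.03, was -0.005 on log2(FPKM + 1), and leaving out 1 library gave -0.141 to 0.134.

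Near 0, signs turned without a call. NFE2L1 with sh1 was at -0.027 with library totals and -0.021 with each limma setting, and leaving out 1 library gave -0.003 to 0.036, and -0.034 to 0.006 with sh3. POMP with sh1 was at -0.023 with library totals and -0.018 or -0.019 with limma (-0.030 to 0.044 leaving out 1 library). PSME2 with sh1 was at 0.003 with no filter and 0.002 with only the 2 groups compared (-0.056 to 0.039). PSMB6 with sh1 was -0.080 to 0.038 leaving out 1 library. Library totals moved the median of all genes by -0.037 and -0.026. The cause was not tested.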
